A study of Mus musculus with 5 samples.

Results

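The 10 genes described here code for the mouse pyruvate dehydrogenase complex (PDC), its phosphorylation switch and the mitochondrial pyruvate carrier. They are Pdha1, Pdhb, Dlat, Dld, Pdhx, Pdk1, Pdk3, Pdp1, Mpc1 and Mpc2, and were chosen by name and function among the 21853 protein-coding genes of the GENCODE annotation of GRCm38/mm10. A peak was counted for a gene where it overlapped the gene body or the 10 kb on either side by at least 1 bp, and it was called a promoter peak where it lay within 3000 bp of the start site of a protein-coding transcript.

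The data are ChIPseq peak lists of acetylated histones from memory (TM) CD8+ T cells, 2 libraries from WT and 3 from TPdh-/- mice. Splenic T cells of OT-I mice, which carry a transgenic receptor for an ovalbumin (OVA) peptide, were activated with that peptide for 3 days and then cultured with IL-15 at 10 ng/mL for 4 days. TPdh-/- mice carry a loxP-flanked Pdha1 and a Cre driven by the Cd4 promoter, which acts in both CD4+ and CD8+ T cells because it is active at the double positive stage of the thymus. The mice were of both sexes and 8 to 12 weeks old, the sex behind each library is not given in the sources used here, and neither is whether WT mice carried the loxP alleles or the Cre. The antibody was raised against acetylated lysine of histones, and the labels name lysine 18. Nothing in the labels says that the libraries came from separate mice. The paper describes its samples as discrete and gives a larger N per condition for ChIPseq than the lists used here. It does not say that the ChIPseq samples were separate mice, so the spread between libraries may be technical. At a given site, fewer cells with the mark and less acetylation per cell cannot be told apart.

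PDC converts pyruvate, the end product of glycolysis, to acetyl-CoA inside mitochondria. Pdha1 and Pdhb code for the E1 subunits that decarboxylate pyruvate, Dlat for the E2 core that makes acetyl-CoA, Dld for the E3 subunit that reoxidises the lipoyl arm, and Pdhx for the protein that binds E3 to the core. Pyruvate dehydrogenase kinases such as Pdk1 and Pdk3 phosphorylate E1 and switch the complex off, the phosphatase Pdp1 switches it back on, and Mpc1 and Mpc2 together form the carrier that brings pyruvate across the inner mitochondrial membrane. Acetyl-CoA is also the donor of the acetyl groups of histones. Whether acetyl-CoA made by PDC reached the mark measured here was not tested.

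The peak lists differed in length, with 15962 and 8859 peaks in WT replicates 1 and 2 and 4920, 5419 and 9418 in TPdh-/- replicates 1, 2 and 3. Every list reached down to a −log10 q just above 1, and none holds read numbers, so the depth behind a list is unknown and a peak that was not called can lie below the threshold. Percentiles below give the place of a peak in its own list by −log10 q, with higher values for stronger peaks. Of 10 genes listed as markers of CD8 T cells, 8, 6, 3, 5 and 6 had a promoter peak in these lists in the same order. The shares of all protein-coding genes with one were 40.9%, 23.7%, 14.7%, 15.9% and 26.8%. Cd8b1, Lck and Ptprc had one in all 5, though Lck and Ptprc are not particular to CD8 T cells. Cd8a had one in WT replicate 1 alone, at percentile 16.0, and Cd2 and Trac had none. Of 3 markers of CD4 T cells all 3 had one in WT replicate 1, Cd4 and Foxp3 had one in WT replicate 2, and none had one in any TPdh-/- list. Of 5 myeloid markers Spi1 had a promoter peak in all 5 lists, and of 3 NK cell markers none had one. The part of other cells in the values below was not tested.

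The sequences of 6 stretches under or beside the peaks are shown. They are 2 carrier promoters and 1 site upstream of Pdk1 that had a peak in all 5 libraries, and the promoters of 3 genes whose peaks were called in some libraries. A link between sequence and peaks was not tested. All are from GRCm38.p6, are written 5′ to 3′ and overlap no annotated exon. Capitals mark matches on either strand to the CCAAT box (CCAAT), the GC box (GGGCGG), an ETS motif (CCGGAAG) or a RUNX motif (TGTGGT), so ATTGG and ACCACA are matches on the opposite strand.
Mpc1, the 249 bases before its first coding start, chr17:8282655-8282903, plus strand: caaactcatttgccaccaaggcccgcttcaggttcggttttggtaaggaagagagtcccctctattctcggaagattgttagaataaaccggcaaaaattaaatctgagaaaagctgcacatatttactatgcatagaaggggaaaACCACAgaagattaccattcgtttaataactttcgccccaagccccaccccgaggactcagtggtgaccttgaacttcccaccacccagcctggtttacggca
Mpc2, the 161 bases between it and the divergent gene Dcaf6, chr1:165460476-165460636, plus strand: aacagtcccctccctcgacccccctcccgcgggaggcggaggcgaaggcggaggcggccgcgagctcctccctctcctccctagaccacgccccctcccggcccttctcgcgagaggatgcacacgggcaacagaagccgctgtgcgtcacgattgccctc
Pdk1, the 300 bases in the middle of the upstream site, chr2:71866263-71866562, plus strand: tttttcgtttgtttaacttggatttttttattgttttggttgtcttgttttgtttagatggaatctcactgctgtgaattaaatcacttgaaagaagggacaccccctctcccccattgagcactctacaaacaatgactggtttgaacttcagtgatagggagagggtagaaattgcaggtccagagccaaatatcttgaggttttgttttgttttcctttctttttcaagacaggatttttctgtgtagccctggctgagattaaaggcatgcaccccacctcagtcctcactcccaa
Pdha1, the 250 bases before its start, chrX:160138414-160138663, minus strand: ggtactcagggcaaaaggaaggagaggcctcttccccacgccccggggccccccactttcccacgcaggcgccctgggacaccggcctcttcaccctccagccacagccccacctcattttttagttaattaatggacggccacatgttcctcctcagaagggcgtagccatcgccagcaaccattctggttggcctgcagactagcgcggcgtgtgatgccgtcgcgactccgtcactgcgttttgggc
Pdhb, the 250 bases before its start, chr14:8173026-8173275, minus strand: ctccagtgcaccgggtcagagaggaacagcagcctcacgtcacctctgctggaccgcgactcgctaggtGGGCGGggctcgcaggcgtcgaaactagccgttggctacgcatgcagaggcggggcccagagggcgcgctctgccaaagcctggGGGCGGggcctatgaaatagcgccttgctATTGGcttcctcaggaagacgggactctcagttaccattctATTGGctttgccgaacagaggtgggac
Pdk3, the 250 bases before its start, chrX:93832202-93832451, minus strand: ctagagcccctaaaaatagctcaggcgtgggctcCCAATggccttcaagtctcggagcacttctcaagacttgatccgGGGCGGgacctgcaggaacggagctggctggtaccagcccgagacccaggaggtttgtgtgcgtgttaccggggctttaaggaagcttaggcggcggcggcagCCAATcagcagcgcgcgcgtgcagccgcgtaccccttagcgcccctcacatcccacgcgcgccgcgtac
The Pdhb sequence held 2 CCAAT and 2 GC boxes and the Pdk3 sequence 2 CCAAT boxes and 1 GC box, while among all promoter windows of that length 33.8% held a CCAAT box and 32.7% a GC box. The Mpc1 sequence held 1 RUNX match, a motif found in 14.0% of windows of its length. It lies before the first of 6 coding starts of Mpc1. A RefSeq promoter window further in, chr17:8283537-8283836, held 2 CCAAT boxes, 1 GC box and 1 ETS match, and no RUNX match, in its first 250 bases. The rest of that window was not searched. The Pdha1, Dcaf6-Mpc2 and Pdk1 sequences held none of the 4 motifs, which says only that these letters are not in these windows.

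Across the 10 genes, 28 peaks were called in the 5 libraries. Of these, 23 were promoter peaks, and the other 5 were 1 site upstream of Pdk1, called once in each library. Within the promoter class, 17 covered a coding start of the gene itself and 6 covered none. The peaks were 588 to 2699 bp wide with a median of 1082 bp, and their fold enrichment over the background of the peak caller ranged from 1.95 to 3.77 with a median of 2.61. No peak of any library lay within 10 kb of these genes other than at the promoter or at the upstream site of Pdk1.

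**Figure D1:**
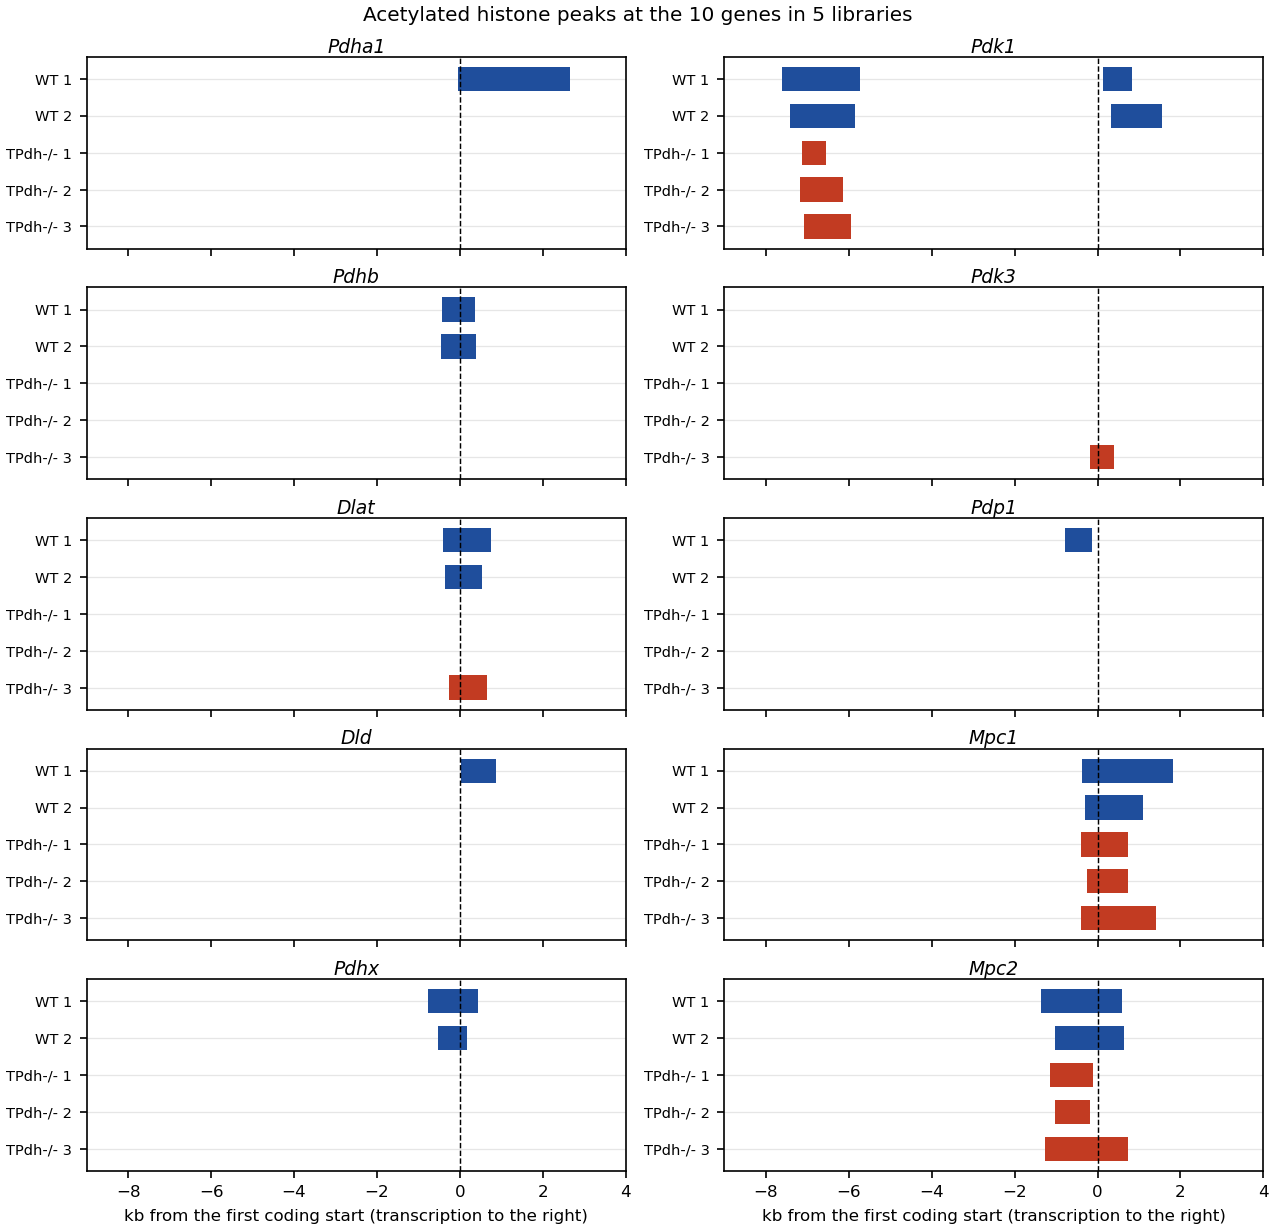
Peaks at the 10 genes. The x axis is the distance in kb from the first coding start in the direction of transcription, each row is 1 library (blue WT, red TPdh-/-) and each bar spans 1 called peak. Mpc1 has a bar over the start in every row. Mpc2 has a bar in every row, which ends 105 and 178 bp short of the start in TPdh-/- replicates 1 and 2. Pdk1 has a bar upstream in every row, and the E1, E2 and E3 genes have bars mostly in the WT rows.

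A promoter peak was called at 9 of the 10 genes in WT replicate 1, where 40.9% of all protein-coding genes had one, and at 6 in WT replicate 2, where 23.7% had one. In TPdh-/- replicates 1 and 2 the count was 2 and 2, beside 14.7% and 15.9% of all genes, and in replicate 3 it was 4, beside 26.8%. The mean was 7.5 ± 2.12 genes (SD, n = 2) in WT against 2.67 ± 1.155 (SD, n = 3) in TPdh-/-, a difference of 4.83 genes, and the groups did not overlap. WT replicate 2 had 6 of these genes to the 4 of TPdh-/- replicate 3 at a smaller share of all genes, and elsewhere the counts did not fall as that share rose. Within 10 kb the counts were 9, 6, 3, 3 and 5, beside 53.9%, 36.3%, 23.1%, 24.6% and 39.1% of all genes.

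When every list was cut to its 4920 strongest peaks, the length of the shortest, those of the 10 genes that kept a promoter peak numbered 5 and 3 in WT and 2, 2 and 3 in TPdh-/-. The difference in means was then 1.67, and the groups no longer separated. WT replicate 2 and TPdh-/- replicate 3 then held the same 3 genes, Dlat, Mpc1 and Mpc2. In those shortened lists 19.3% and 16.4% of all protein-coding genes had a promoter peak in WT and 14.7%, 15.2% and 18.1% in TPdh-/-.

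**Figure D2:**
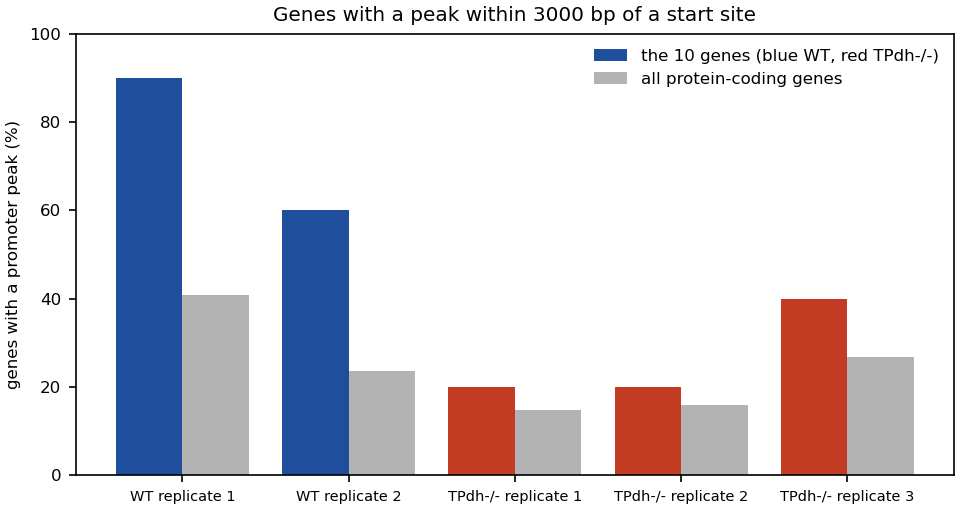
Percent of genes with a promoter peak (y axis) in each of the 5 libraries (x axis). Coloured bars are the 10 genes (blue WT, red TPdh-/-) and grey bars are all 21853 protein-coding genes, and both are tallest in WT replicate 1, at 9 of 10 genes and 40.9%.

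By pattern, 2 of the 10 genes had a promoter peak in all 5 libraries, Mpc1 and Mpc2, beside 10.4% of all genes. With the 10 kb reach the count was 3, since Pdk1 joined through its upstream site, beside 17.1%. Another 3 had one in both WT libraries and in no TPdh-/- library, namely Pdhb, Pdhx and Pdk1, beside 2.11% of all genes. A further 3 had one in WT replicate 1 alone, namely Pdha1, Dld and Pdp1, beside 11.1%. Pdk3 was the 1 gene with a peak in TPdh-/- replicate 3 alone, beside 0.398%, and the 1 gene with a peak in TPdh-/- and in no WT library, beside 0.732%. Dlat had one in both WT libraries and in TPdh-/- replicate 3. These patterns are those of the full lists. When the lists were cut to equal length, none of Pdhb, Pdhx and Pdk1 kept a promoter peak in both WT libraries. Pdhx kept one in WT replicate 1, and Pdhb and Pdk1 kept none. Mpc1 and Mpc2 kept theirs in all 5 libraries, and Dld and Pdp1 theirs in WT replicate 1.

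Among the catalytic subunits, Pdha1, the deleted gene, lies on chromosome X from 160122209 to 160138413 on the minus strand. Its 1 peak, in WT replicate 1, covered the start and ran into the gene for 2699 bp, 514 bp in exons and 2135 bp in introns, which made it the widest of the 28. It was also among the weakest, with a fold enrichment of 2.25, a −log10 q of 2.03, rank 13020 of 15962 and percentile 18.4. Of the WT replicate 1 peaks between percentiles 10 and 20, 68.4% had no peak in any other library. Whether the deletion took place cannot be read from called peaks.

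Pdhb, which codes for the β chain of E1, lies on chromosome 14 from 8165996 to 8173025 on the minus strand. Its peak covered the start and all of the 250 bases printed above in both WT libraries, 807 bp wide with a fold of 2.32 and percentile 10.2 in replicate 1, and 839 bp wide with a fold of 2.56 and percentile 17.3 in replicate 2. Both edges of the peak lay within 20 bp of each other in the 2 WT libraries, yet the −log10 q was 1.63 and 1.77, the latter still within 1 of the threshold. In TPdh-/- no peak was called, and at a −log10 q of at least 2 none was left in WT.

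Dlat, the acetyltransferase core, lies on chromosome 9 from 50634633 to 50659780 on the minus strand. Its peak covered the start in WT replicate 1 (1142 bp, fold 3.12, percentile 67.7), WT replicate 2 (907 bp, fold 3.29, percentile 76.8) and TPdh-/- replicate 3 (927 bp, fold 3.01, percentile 63.2). The 3 folds were all above 3, and the TPdh-/- value was the lowest of them in fold and percentile. The libraries without a Dlat peak were the 2 with the shortest lists, TPdh-/- replicates 1 and 2.

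Dld, whose E3 product also serves the 2-oxoglutarate and branched-chain complexes, lies on chromosome 12 from 31331277 to 31351453 on the minus strand. Its peak in WT replicate 1 was 849 bp wide and began 22 bp downstream of the start, with 131 bp in exons and 718 bp in introns. It had the highest fold of all 28 peaks, 3.77, with a −log10 q of 9.16, rank 2041 and percentile 87.2. Of the WT replicate 1 peaks between percentiles 80 and 90, 6.77% had no peak in any other library.

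Pdhx, the E3-binding protein, lies on chromosome 2 from 103021075 to 103073513 on the minus strand and shares its start region with the divergent gene Apip, an enzyme gene of methionine salvage. A peak covered the start in WT replicate 1 (1211 bp, fold 3.37, −log10 q 7.49, percentile 79.7) and in WT replicate 2 (688 bp, fold 2.64, −log10 q 2.02, percentile 24.5). Both peaks were as near to a coding start of Apip as to that of Pdhx, so they cannot be assigned to 1 of the pair.

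Of the regulators, Pdp1, the phosphatase that reactivates E1, lies on chromosome 4 from 11958184 to 11966452 on the minus strand. Its peak was called in WT replicate 1 alone, 641 bp wide and 137 bp upstream of the start, with a fold of 3.29, a −log10 q of 7.21, rank 3500 and percentile 78.1. Of the peaks of that list between percentiles 70 and 80, 12.3% had no peak in any other library. Pdp1 and Dld were thus called in 1 WT library with values above those of most peaks in its list, whereas the Pdha1 peak of the same library stood among its weak ones.

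Pdk3, one of the 4 mammalian pyruvate dehydrogenase kinases, lies on chromosome X from 93764607 to 93832201 on the minus strand. Its peak was called in TPdh-/- replicate 3 alone, covered the start, and was 591 bp wide with a fold of 2.61, a −log10 q of 2.44, rank 6503 and percentile 31.0. It dropped out when that list was cut to its 4920 strongest peaks. Pdha1 and Pdk3 are X-linked, so sex can bear on both, and the lists held 294 and 137 peaks on chromosome X in WT and 49, 52 and 122 in TPdh-/-. Xist, the RNA of the inactive X of females, had no promoter peak in any library. Of the 4 genes of chromosome Y examined, Uty had one in both WT libraries and in TPdh-/- replicates 2 and 3, and TPdh-/- replicate 1 had none at any of the 4. The whole of chromosome Y held 7 and 7 peaks in WT and 2, 2 and 5 in TPdh-/-. TPdh-/- replicate 1, the shortest list, thus had as many as replicate 2. The part of sex in the Pdha1 and Pdk3 values was not tested.

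Pdk1, a kinase that is induced under hypoxia, lies on chromosome 2 from 71873224 to 71903858 on the plus strand and carried 2 separate sites. At the promoter, a peak lay just inside the gene in WT replicate 1 (139 bp downstream of the start, 682 bp, fold 2.34, percentile 68.6) and in WT replicate 2 (319 bp downstream, 1246 bp, fold 2.26, percentile 27.5), wholly over annotated exon sequence. No TPdh-/- library had a promoter peak at Pdk1.

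The second site lay 5736 to 6544 bp upstream of the start, between Itga6 and Pdk1 and outside any annotated gene. It was called in all 5 libraries, and the stretch common to the 5 peaks, chr2:71866145-71866680, was 536 bp long. That stretch begins 7729 bp beyond the end of Itga6, which codes for an integrin α subunit, and Pdk1 has the nearest coding start. The sequence was unlike that of the carrier promoters. Its GC content was 44.2% and its CpG dinucleotides were at 0.076 of the number its base composition would give, against 57.9% and 0.590 at Mpc1 and 68.6% and 0.760 at Mpc2. Repeats made up 29.3% of it.

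At the upstream site of Pdk1 the percentile was 86.1 and 68.0 in WT and 16.3, 51.6 and 28.5 in TPdh-/-. Its width was 1870 and 1587 bp in WT against 588, 1044 and 1129 bp in TPdh-/-. Both WT libraries lay above all 3 TPdh-/- libraries in both measures, while the fold enrichment, 2.2004 and 2.22 in WT and 2.12, 2.25 and 1.95 in TPdh-/-, overlapped. The mean percentile was 77.1 ± 12.8 (SD, n = 2) in WT against 32.1 ± 18.0 (SD, n = 3) in TPdh-/-, a difference of 44.9 (exact permutation test, two-sided, p = 0.2, Benjamini-Hochberg adjusted p = 0.647). The mean width was 1728.5 ± 200 bp in WT against 920 ± 291 bp in TPdh-/-, a difference of 808 bp (exact permutation test, two-sided, p = 0.2, adjusted p = 0.591). The log2 fold enrichment differed by 0.07 (exact permutation test, two-sided, p = 0.6, adjusted p = 0.925).

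With 2 libraries against 3 there are 10 ways to divide the libraries, and the two-sided p, taken here as the smaller one-sided p times 2, cannot go below 0.2. This test could therefore not pass 0.05 whatever the values, and its p-values say nothing about whether a difference is absent. Such separation was common among the 3099 regions with a peak in all 5 libraries: in 29.5% of them both WT percentiles were above every TPdh-/- percentile, and in 33.5% both WT widths were above every TPdh-/- width. The median difference over those regions was 10.6 percentile points and 264 bp in the same direction. The site was tested against these regions after its values were seen. In the lists of 4920 peaks its percentile was 55.0 and 42.4 in WT and 16.3 and 46.7 in TPdh-/- replicates 1 and 2, which overlap, and the peak of TPdh-/- replicate 3, at rank 6737, was no longer among them.

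Of the carrier genes, Mpc1 lies on chromosome 17 from 8282904 to 8297661 on the plus strand. Its peak covered the first of its 6 coding starts in all 5 libraries. The 5 peaks had a stretch of 977 bp in common, chr17:8282655-8283631, which runs from upstream of that start into an intron. The peaks of TPdh-/- replicates 1 and 2 ended at 8283631 and 8283635, within the RefSeq promoter window chr17:8283537-8283836 and short of its start. The peaks of the other libraries covered that window whole. The RefSeq window further in, chr17:8284204-8284503, was covered whole in WT replicate 1 alone. The fold enrichment was 2.66 and 3.16 in WT and 2.63, 2.71 and 2.75 in TPdh-/-. The peak stood at percentiles 75.3 and 87.4 in WT and 42.3, 59.9 and 77.5 in TPdh-/-, and its width was 2200 and 1386 bp in WT against 1120, 981 and 1804 bp in TPdh-/-. The groups overlapped in all 3 measures, with TPdh-/- replicate 3 above one of the WT libraries each time. The upstream edge varied little between libraries and the edge inside the gene moved most, as the map of peaks shows.

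The mean percentile of the Mpc1 peak was 81.4 ± 8.55 (SD, n = 2) in WT against 59.9 ± 17.6 (SD, n = 3) in TPdh-/-, a difference of 21.5 (exact permutation test, two-sided, p = 0.4, adjusted p = 0.78). Over the 2279 protein-coding genes with a promoter peak in all 5 libraries, the median difference was 8.90. The log2 fold enrichment differed by 0.10 (exact permutation test, two-sided, p = 0.6, adjusted p = 0.916), beside a median of 0.03. Width differed by 491 bp (exact permutation test, two-sided, p = 0.4, adjusted p = 0.655), beside a median of 236 bp. Leaving out TPdh-/- replicate 1 lowered the percentile difference to 12.7, and the width difference ran from 84.3 bp without WT replicate 1 to 898 bp without WT replicate 2.

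Mpc2 lies on chromosome 1 from 165460637 to 165481214 on the plus strand, back to back with Dcaf6, a substrate receptor of an E3 ubiquitin ligase. The 5′ ends of the 2 genes are separated by the 161 bases printed above, and their first coding starts are 572 bp apart. A peak lay over this interval in all 5 libraries, and the stretch common to the 5 peaks, chr1:165460007-165460859, was 853 bp long. In WT replicates 1 and 2 and in TPdh-/- replicate 3 the peak covered the coding starts of both genes. In TPdh-/- replicates 1 and 2 it ended 105 and 178 bp short of the coding start of Mpc2 and was nearest to Dcaf6. When a peak was kept only for the gene with the nearest start, Mpc1 was the 1 gene left with a promoter peak in all 5 libraries.

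The fold enrichment at Mpc2 was 2.61 and 2.60 in WT and 2.66, 2.41 and 2.44 in TPdh-/-. Its percentiles were 71.0 and 62.0 in WT and 42.4, 33.5 and 62.6 in TPdh-/-, and its widths 1938 and 1662 bp in WT against 1034, 859 and 2011 bp in TPdh-/-. The groups overlapped in each measure, and the widest peak of the 5 was that of TPdh-/- replicate 3. The mean percentile was 66.5 ± 6.33 (SD, n = 2) in WT against 46.2 ± 14.9 (SD, n = 3) in TPdh-/-, a difference of 20.4 (exact permutation test, two-sided, p = 0.4, adjusted p = 0.78). The log2 fold enrichment differed by 0.06 (exact permutation test, two-sided, p = 0.6, adjusted p = 0.916) and the width by 499 bp (exact permutation test, two-sided, p = 0.6, adjusted p = 0.758). Without TPdh-/- replicate 2 the width difference was 278 bp, and without TPdh-/- replicate 3 it was 854 bp.

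**Figure D3:**
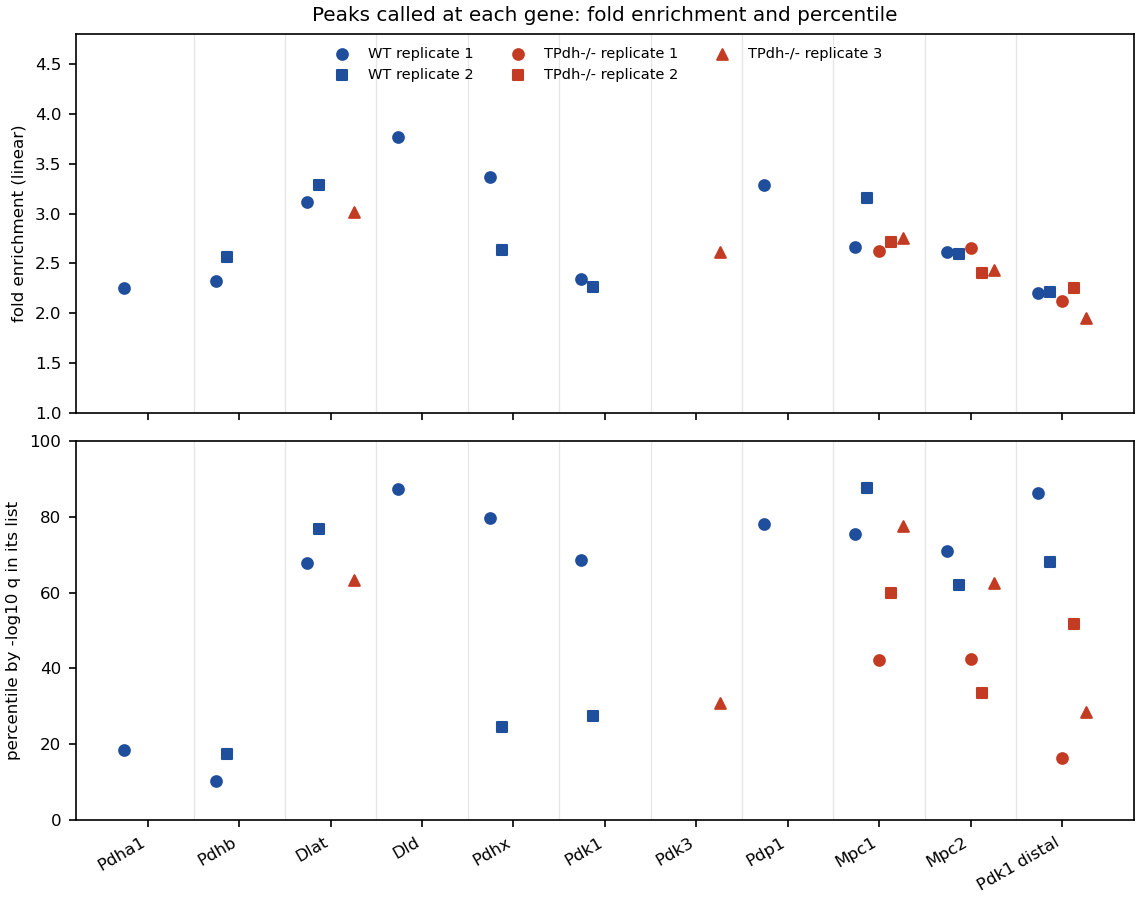
Fold enrichment (upper y axis, linear, starting at 1) and percentile by −log10 q (lower y axis) of each called peak, by gene (x axis), with the site upstream of Pdk1 last as Pdk1 distal. Each point is 1 library (blue WT, red TPdh-/-), and a missing point means that no peak was called. Dld in WT replicate 1 has the highest fold, 3.77, and the Pdk1 distal points separate by group in percentile but not in fold.

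The direction of the percentile at both carrier genes depended on the length of the lists. In lists of 4920 peaks the Mpc1 peak stood at percentiles 20.02 and 77.4 in WT and 42.3, 55.8 and 57.0 in TPdh-/-, and the mean was lower in WT, with a WT minus TPdh-/- difference of -2.99. The Mpc2 peak stood at 5.91 and 31.7 in WT and 42.4, 26.7 and 28.4 in TPdh-/-, with a difference of -13.7. WT replicate 1, the longest list, moved most for both genes.

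**Figure D4:**
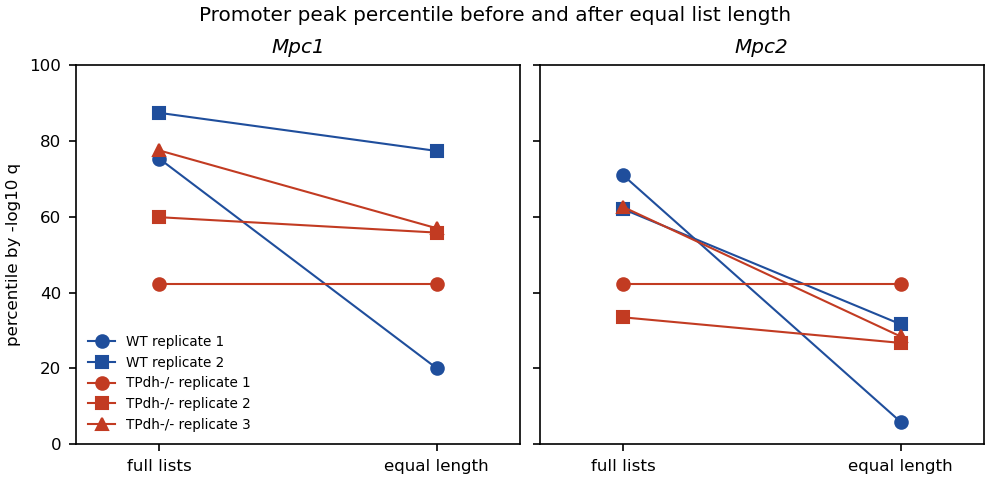
Percentile by −log10 q (y axis) of the promoter peaks of Mpc1 and Mpc2 in the full lists and in lists of equal length, each cut to its 4920 strongest peaks (x axis). Each line is 1 library (blue WT, red TPdh-/-), and the line of WT replicate 1 falls from 75.3 to 20.02 at Mpc1 and from 71.0 to 5.91 at Mpc2.

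The promoters of these genes were also compared by sequence. RefSeq promoter windows of GRCm38, 250 bases before to 50 after a start, were matched by symbol for 9 of the 10 genes, with 11 windows, and Pdp1 was not matched. All values of windows in this paragraph cover only the 250 bases before the start. Their median GC content was 64%, from 38.4% to 73.6%, against 52.4% over all 32851 windows, and their median CpG ratio was 0.756 against 0.373. The GC box was found in 8 of the 11 windows, at 7 of the 9 genes, against 32.7% of all windows. The CCAAT box was found in 5 of the 11 windows, at 5 genes, against 33.8%. The RUNX motif was found at 2 genes, Pdk1 and Pdha1, in 2 of the 11 windows, against 14.0% of all windows. The ETS motif was found at 1 gene, Mpc1, in 1 of the 11 windows, against 6.91%. These windows do not begin where the printed stretches begin. The Pdha1 window thus held a RUNX match that the printed Pdha1 stretch lacks. The Mpc1 windows held none, unlike the printed Mpc1 stretch.

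Around these genes in the pathway, a list of 9 homologues and further regulators had 5 and 3 genes marked at the promoter in WT, and 2, 2 and 2 in TPdh-/-. Among all protein-coding genes 40.9% and 23.7% had a promoter peak in WT, and 14.7%, 15.9% and 26.8% in TPdh-/-. For this and the other pathway lists the nearest start site of a peak was not examined, so a peak may belong to a neighbouring gene. Lias, which makes lipoic acid, and Dlst, the E2 of the 2-oxoglutarate complex, had a promoter peak in all 5 libraries. At Lias the percentile was 96.2 and 78.3 in WT and 94.7, 76.6 and 88.0 in TPdh-/-, so the groups overlapped. Lipt1, a lipoyl transferase, had a peak in both WT libraries and in no TPdh-/- library, at percentiles 21.5 and 55.0. The kinase Pdk2 and the phosphatase Pdp2 had one in WT replicate 1 alone, at percentiles 48.5 and 44.8. Pdha2, Pdk4, Pdpr and Lipt2 had none in any library, Pdha2 being the testis form of E1α.

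The sister complexes, which use the same chemistry on 2-oxo acids, gave 5 and 3 of 7 genes in WT and 2, 3 and 3 in TPdh-/-. The shares of all protein-coding genes beside these counts were again 40.9% and 23.7% in WT and 14.7%, 15.9% and 26.8% in TPdh-/-. Ogdh, the E1 of the 2-oxoglutarate complex, had a promoter peak in all 5 libraries, at percentiles 89.3 and 82.7 in WT and 85.0, 71.5 and 97.9 in TPdh-/-. Bckdha, E1α of the branched-chain complex, did so too, at 91.5 and 96.6 in WT and 66.3, 85.6 and 80.4 in TPdh-/-. At Bckdha both WT percentiles lay above all 3 TPdh-/- percentiles, while at Ogdh the groups overlapped. Such separation was seen in 29.5% of the regions with a peak in all 5 libraries, whether at promoters or not. Its share among promoter peaks alone was not computed. Ppm1k, the branched-chain phosphatase, had one in all libraries but TPdh-/- replicate 1. Dbt and Bckdk had one in WT replicate 1 alone, and Dhtkd1 and Bckdhb had none.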

How the data were processed

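Reads were aligned by the authors to GRCm38/mm10 with BWA-mem (0.7.17), uniquely mapping reads were kept and blacklisted regions removed with Samtools (1.15.1), and broad peaks were called for each library with MACS2 (2.2.6). An input control is not given in the sources used here. The deposited lists give for each peak a fold enrichment (a linear ratio), a −log10 p, a −log10 q and a score for display, of which the −log10 p and the score were not used.

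Peaks were matched to the GENCODE annotation of GRCm38 with Python 3.11.15, numpy 2.4.6 and pandas 2.3.3, and sequences were read with samtools 1.23.1 from GRCm38.p6 or taken from RefSeq windows. Where a promoter held several peaks of 1 library, the strongest by −log10 q was used. Groups were compared for features with a peak in all 5 libraries by exact permutation tests over the 10 ways to divide 5 libraries into 2 and 3. Two-sided p-values were the smaller one-sided p times 2, and Benjamini-Hochberg adjustment ran over all genes or regions of that kind. All 10 genes are described in every library. Of the pathway lists, genes are named by a rule on their peak pattern: in all 5 libraries, in both WT and no TPdh-/- library or the reverse, or in none. Others were named after their values were seen. The genes and lists were chosen with earlier results of these data known. Scripts were tested on simulated lists. Alternatives were a stricter −log10 q, equal list length, other windows and peak assignment, ranking by fold, a block for the replicate number, and omission of each library in turn. Some marker genes of other cell types are not reported here.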

Additional observations from a re-analysis of the deposited data

How the results depend on the processing

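Read numbers are unknown, so no interval for counting error could be given, and list length differed more than 3-fold between libraries. In both WT minus TPdh-/- differences of counts the direction held under every alternative run. Equal list length lowered the difference from 4.83 to 1.67 genes for promoters and from 3.83 to 2 within 10 kb. At a −log10 q of at least 5, 0 genes had a promoter peak and 0 a peak within 10 kb in all 5 libraries, and with assignment to the nearest start site 1 gene had a promoter peak in all 5. Leaving out each library gave differences of 3.33 to 6.33 genes for promoters and 2.33 to 5.33 within 10 kb, lowest without WT replicate 1, and 2 and 3 genes in all the libraries kept. For the single peaks, equal list length reversed the percentile difference to -2.99 at Mpc1 and -13.7 at Mpc2, and leaving out WT replicate 2 reversed that of the log2 fold enrichment at Mpc1, which ran from -0.019 to 0.228. The other 62 alternatives for single peaks kept the direction, and the permutation test could pass 0.05 in none. The difference in log2 fold enrichment ran from 0.03 to 0.11 at Mpc2 and from 0.01 to 0.12 at the upstream site of Pdk1 when a library was left out. The replicate numbers are not stated to pair libraries. With them as a replicate block the difference was 5.5 genes for promoters and 4.5 within 10 kb, and the correlations of deviations between same-numbered libraries were -0.11 and 0.07 over 2279 genes. The alternatives for the upstream site of Pdk1 were chosen after seeing the data.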

Other observations

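Among 11 genes of the other routes that pyruvate can take in a cell, 6 and 2 had a promoter peak in WT and 2, 2 and 4 in TPdh-/-. Of all protein-coding genes, 40.9% and 23.7% had a promoter peak in WT and 14.7%, 15.9% and 26.8% in TPdh-/-. Ldha, the lactate dehydrogenase chain that turns pyruvate to lactate, had one in all 5 libraries, at percentiles 90.0 and 79.4 in WT and 61.4, 83.5 and 86.6 in TPdh-/-. Me2, the mitochondrial malic enzyme, also had one in all 5, at percentiles 59.9 and 86.5 in WT and 9.09, 39.9 and 84.3 in TPdh-/-. The groups overlapped at both genes. Pkm, the pyruvate kinase of most proliferating cells, and Slc16a1, a monocarboxylate carrier, had a promoter peak in WT replicate 1 alone, at percentiles 58.9 and 6.37. Slc16a3, the carrier that exports lactate, and Gpt, an alanine aminotransferase, had one in WT replicate 1 and in TPdh-/- replicate 3, at percentiles 51.6 and 19.2 for Slc16a3 and 29.6 and 13.4 for Gpt. Ldhb, Slc16a7, Pcx, Me1 and Gpt2 had none in any library, Pcx being the enzyme that carboxylates pyruvate to oxaloacetate.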
